A study of Homo sapiens with 34 samples.

Results

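The DEAD and DEAH box RNA helicases are proteins that use ATP to unwind or remodel RNA, and they were followed here across androgen-independent (AI) and androgen-dependent (AD) prostate cancer cells. Members were all protein-coding rows of the deposited RNA-seq table whose symbol begins with DDX or DHX and a digit, without the Y-linked row and 1 further symbol that the rule leaves out. This gave 51 genes of 28071 genes listed, of which 35 carried a DDX and 16 a DHX symbol. They are called helicases here by symbol alone, without a check of each protein. All 51 were also listed in the table of RNA immunoprecipitation (RIP). A gene had to reach 0.5 RPKM (reads scaled by gene length and by library size) in at least 2 libraries to be tested, and 49 of the 51 did so in RNA-seq. DDX4 and DDX60L did not. In RIP, 50 helicases passed, all but DDX4. DDX26B matched the rule by an older symbol, and its current symbol is INTS6L.

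The cells were LNCaP, an established human prostate cancer line. AI cells were kept in RPMI1640 with serum stripped of steroids by charcoal, and AD cells in RPMI1640 medium. RNA-seq covered both kinds of cells in 3 states with 2 libraries each: transfected with siRNA against EZH2 (siEZH2) or with a mock siRNA and collected after 24 hours, or untreated. RIP after ultraviolet crosslinking used an antibody to EZH2 or control IgG in AI and AD cells, also with 2 libraries each, and peak lists came from chromatin immunoprecipitation (ChIP) of the histone mark H3K27me3 (2 AI and 2 AD lists) and of EZH2 (1 AI and 2 AD lists), each against its own input. EZH2 is the Polycomb methyltransferase that places H3K27me3. No group carried an engineered allele per the labels. The labels' treatment protocol names LNCaP/abl, an androgen-independent line, as the transfected cells, while titles of both AI and AD libraries carry siRNA names. Titles were followed, and what is said of transfected AD cells depends on them. The labels do not tell whether replicates were separate cultures, so each p-value reflects variation among these libraries alone, possibly technical. In bulk RNA, fewer cells of a type and less RNA per cell cannot be told apart.

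DEAD and DEAH box proteins share a helicase core made of a pair of RecA-like domains. DEAD box members mostly pry apart short duplexes or clamp onto RNA without travelling far, whereas DEAH box members move along a strand and are often switched on by G-patch cofactors. Together they drive splicing, ribosome assembly, mRNA export, translation and decay, and DDX5 (p68) and DDX17 (p72) are also known as coregulators of transcription.

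EZH2, the target of the siRNA, had 3.6 and 4.33 RPKM in AI siEZH2 libraries, against 7.07 and 5.44 RPKM in AI mock libraries. In the libraries labelled AD siEZH2 it had 11.52 and 10.73 RPKM, against 10.95 and 12.48 RPKM in AD mock libraries. These overlapped and did not show a knockdown at the RNA level. Untreated cells had EZH2 at 10.11 and 12.62 RPKM in AI and 5.21 and 6.94 RPKM in AD libraries. EZH2 was thus higher in AI than in AD when untreated, and lower in AI mock than in AD mock libraries. Luminal prostate markers were present in every RNA-seq library (KLK3 at 1286.41 RPKM or more, HOXB13 at 128.44 RPKM or more), and the 5 markers of leukocytes, endothelium, fibroblasts and basal cells stayed at or below 0.06 RPKM. Mitochondrially encoded genes made up 2.1% to 4.07% of summed RPKM in transfected libraries and 18.36% to 33.45% in untreated ones. Transfection and experiment cannot be told apart. RPKM tables hold no read totals, so absolute depth is unknown. Steps between low values placed the transfected RNA-seq libraries at 79% to 134% of the depth of AD siEZH2 replicate 1, while the 4 IgG libraries had 0.997% to 22.9% of the depth of AD EZH2 RIP replicate 1.

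Taken over the 51 genes, summed helicase RNA was 988 and 987 RPKM in AI siEZH2 libraries and 1561 and 1577 RPKM in AD siEZH2 libraries. It was 1000 and 1001 RPKM in AI mock libraries, against 1628 and 1628 RPKM in AD mock libraries. In untreated cells the order was the other way round, with 1581 and 1591 RPKM in AI and 1221 and 1222 RPKM in AD cells. DDX5 alone carried 21.3% and 21.8% of that sum in untreated AI cells and 16.0% and 17.5% in untreated AD cells. Its share was 2.2% and 2.4% in AI mock libraries, against 16.9% and 18.6% in AD mock libraries. The median RPKM of all genes tested moved in the same directions as the summed helicase RNA. It was 2.78 and 2.78 in AI siEZH2 and 4.83 and 4.87 in AD siEZH2 libraries. In mock libraries it was 3.1 and 3.12 in AI and 4.93 and 5.12 in AD, and in untreated ones 4.46 and 4.18 in AI and 3.71 and 3.84 in AD. The order of the sums is thus not particular to helicases. By mean RPKM over the 12 libraries, a per-length level, DDX5 led with 190.58, followed by DDX41 (149.86), DDX24 (87.82), DDX54 (86.34) and DDX23 (72.24). The germ cell helicase DDX4 (VASA) was last with 0.01 RPKM.

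**Figure D1:**
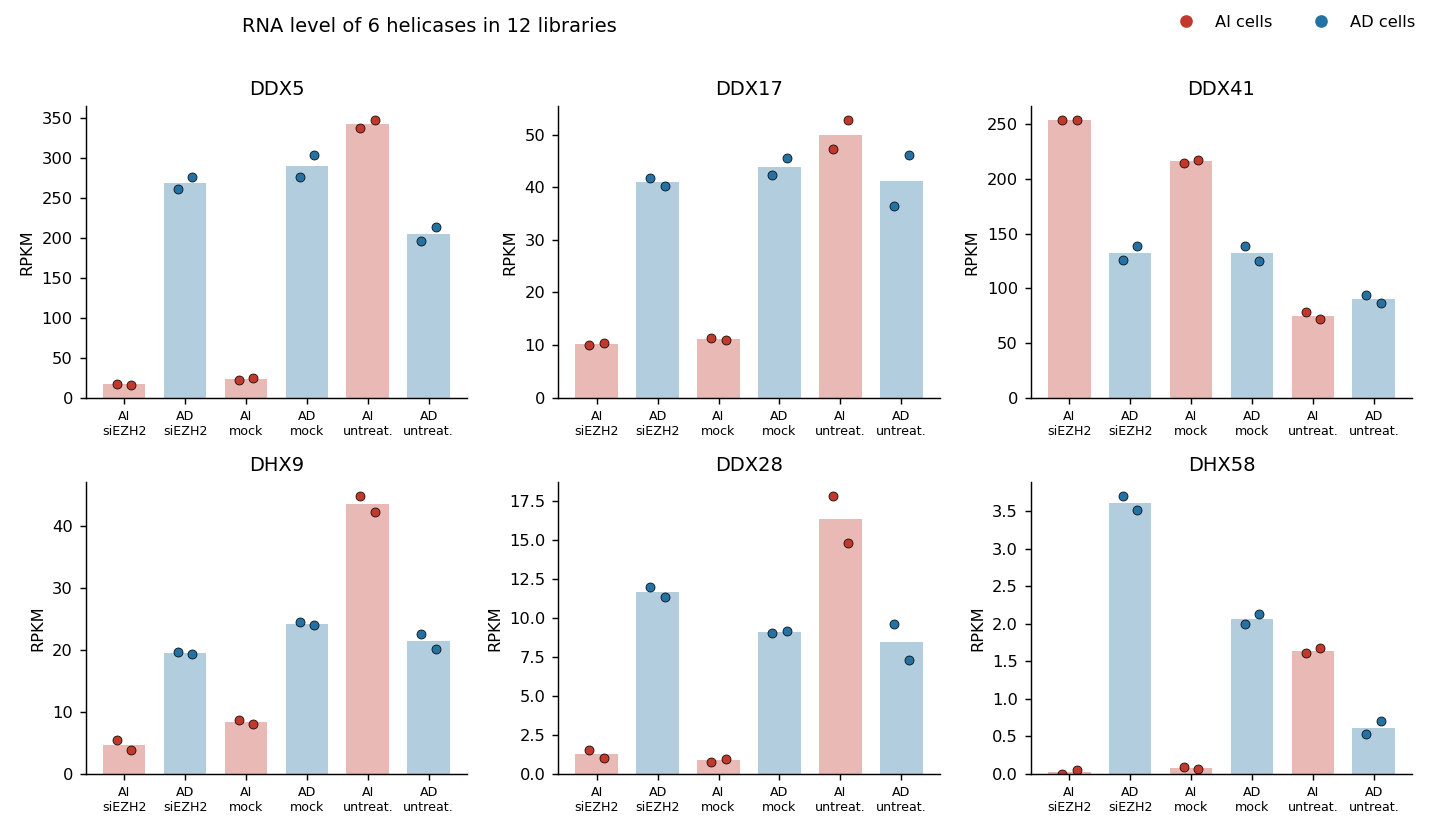
RNA level (RPKM, linear axis from 0) of DDX5, DDX17, DDX41, DHX9, DDX28 and DHX58 in the 12 RNA-seq libraries. Points are single libraries and bars are means of 2; DDX5 lay at 16.15 to 24.37 RPKM in the 4 transfected AI libraries and at 195.43 RPKM or more in the other 8.

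DDX5 and its paralog DDX17, which acts with DDX5 in splicing and microRNA processing, varied together over the 12 libraries, with a Pearson correlation of 0.994 on the log2(RPKM + 0.5) scale. The next closest to DDX5 were DHX34, a helicase of nonsense-mediated decay (0.977), and DDX42, a component of the early spliceosome (0.977). At the other end stood DDX41, a spliceosome helicase of the late steps of splicing, with -0.884. These correlations describe 12 libraries that share their groups and carry no test. The 150 bases before the annotated start are shown for DDX5, DDX17, DDX41 and DHX9, picked as examples. They are from RefSeq on build GRCh38.p14, in the direction of the gene, with capitals for the motif letters that were searched.
DDX5, chr17:64506639-64506788, minus strand: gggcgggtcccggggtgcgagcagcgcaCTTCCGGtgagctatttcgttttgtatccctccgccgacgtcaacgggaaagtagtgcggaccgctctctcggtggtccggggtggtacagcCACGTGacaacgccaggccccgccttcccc
DDX17, chr22:38506312-38506461, minus strand: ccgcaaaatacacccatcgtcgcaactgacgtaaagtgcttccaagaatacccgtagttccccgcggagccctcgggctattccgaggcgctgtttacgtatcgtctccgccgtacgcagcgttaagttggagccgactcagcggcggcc
DDX41, chr5:177516962-177517111, minus strand: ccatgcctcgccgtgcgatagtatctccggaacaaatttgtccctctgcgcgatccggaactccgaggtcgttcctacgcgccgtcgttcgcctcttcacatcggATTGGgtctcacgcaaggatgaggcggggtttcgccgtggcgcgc
DHX9, chr1:182839197-182839346, plus strand: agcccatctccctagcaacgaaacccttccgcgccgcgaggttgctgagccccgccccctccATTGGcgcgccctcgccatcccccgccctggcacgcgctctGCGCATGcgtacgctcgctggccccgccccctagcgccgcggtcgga

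In the 250 bases before the start, read on both strands, the DDX5 promoter held an E-box (CACGTG) 25 to 30 bases and an ETS core (CCGGAAG, here as its reverse complement) 116 to 122 bases upstream. None of the 5 searched motifs lay in the DDX17 window. A part of promoter sequence in the correlations between helicases was not tested. The DDX41 window held the CCAAT box (CCAAT) at 2 places, 1 of them as ATTGG 41 to 45 bases upstream, and the DHX9 window held a CCAAT box and the NRF1 core (GCGCATG) at 2 places, 1 of them outside the printed stretch. Promoters were listed for 47 of the 51 helicases, and those of DHX33, DHX58, DDX18 and DDX52 were not matched. Among the 47, the ETS core was present in 15 (31.9%), against 13.2% of 13130 protein-coding promoters. CCAAT was present in 22 (46.8%) against 34.7%, the E-box in 7 (14.9%) against 8.2%, the NRF1 core in 5 (10.6%) against 5.53%, and a TATA box (TATAAA) in 2 (4.26%) against 7.32%. Median GC content of the window was 61.2% for helicases and 63.6% for all promoters. A match of letters is a description of the sequence and shows no binding.

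The comparison of untreated AI with untreated AD cells asks how androgen-independent growth goes with helicase RNA. Most helicases that differed were higher in AI cells. DDX21, which works in ribosomal RNA processing in the nucleolus, had 44.99 and 56.31 RPKM in AI cells, against 20.37 and 26.87 RPKM in AD cells. DHX9 (RNA helicase A) had 44.89 and 42.3 RPKM in AI cells, against 22.6 and 20.23 RPKM in AD cells. DDX6, the P-body helicase of mRNA storage and decay, had 8.75 and 10.83 RPKM in AI and 3.61 and 5.83 RPKM in AD cells. DDX5 had 336.92 and 347.15 RPKM in AI cells, against 195.43 and 213.79 RPKM in AD cells. In each of these genes both AI libraries lay above both AD libraries.

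By limma on log2(RPKM + 0.5), with Benjamini-Hochberg adjusted p under 0.05 over 14227 genes, 24 of 49 helicases were higher and 2 were lower in untreated AI cells. Over all genes 22.2% were called higher and 12.4% lower, 34.6% in all. The median log2 difference was 0.37 for helicases and 0.13 for all genes. The 3 largest rises were 1.09 for DDX21 (SE 0.151, adjusted p = 0.000626), 1.01 for DDX6 (SE 0.195, adjusted p = 0.00379) and 1.01 for DHX9 (SE 0.14, adjusted p = 0.000633). DDX5 rose by 0.74 (SE 0.104, adjusted p = 0.000671). With quantile normalization the calls were 15 higher and 6 lower (helicase median 0.22), and with TMM scaling 14 and 6 (0.20). Over all 14227 genes the calls were 2336 higher and 2291 lower with quantile normalization (median 0.03), and 2081 and 2416 with TMM scaling (median 0). A fit on these 4 libraries alone called 1 helicase, beside 588 genes higher and 518 lower. Leaving out AD replicate 1 or AI replicate 2 gave fewer helicase calls. The helicase median was then 0.33 and 0.32, against 0.13 and 0.18 for all genes.

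Counts by role were as follows, with no test between roles. Of 9 helicases of mRNA export, translation, storage and decay, 7 rose, with a median log2 difference of 0.78. They included DDX1, which acts in tRNA splicing and RNA transport (35.02 and 27.33 RPKM in AI, 16.17 and 15.67 RPKM in AD, log2 difference 0.94), and DDX3X, which helps translate mRNAs with structured leaders (28.98 and 31.8 RPKM in AI, 16.61 and 18.47 RPKM in AD, 0.78). DDX19A, which releases mRNA at the cytoplasmic face of the nuclear pore, rose by 0.79. Its close paralog DDX19B had 6.94 and 10.28 RPKM in AI and 5.04 and 6.55 RPKM in AD cells, which did not overlap, but its difference of 0.52 did not pass (adjusted p = 0.111). The authors' counting may split reads between such copies, so values of this pair, and likewise of DDX39A and DDX39B, DDX60 and DDX60L, and DDX11 with its pseudogene copies, are uncertain.
Of 13 spliceosome and nuclear processing helicases 7 rose and none fell. Among them were DHX15, which takes apart spent spliceosomes, with 43.66 and 35.8 RPKM in AI and 19.89 and 23.49 RPKM in AD cells (0.86), and DDX46 (PRP5), an early splicing factor, with 24.51 and 24.21 RPKM in AI and 15.85 and 14.26 RPKM in AD cells (0.68). DDX17 had 47.24 and 52.84 RPKM in AI and 36.37 and 46.06 RPKM in AD cells, a difference of 0.28 that did not pass (adjusted p = 0.105).
Of 15 ribosome assembly helicases 6 rose, among them DDX24 (76.4 and 92.34 RPKM in AI, 57.33 and 63.94 RPKM in AD) and DDX31 (9.33 and 11.16 RPKM in AI, 5.5 and 6.77 RPKM in AD). DDX51 fell, with 3.76 and 2.8 RPKM in AI and 5.25 and 5.49 RPKM in AD cells (log2 difference -0.65, SE 0.19, adjusted p = 0.0264). The other fall was DHX40, a DEAH helicase whose role is less well known, with 10.85 and 11.31 RPKM in AI and 13.93 and 14.1 RPKM in AD cells (-0.33). The 2 falls were not called with AD replicate 1, AD replicate 2 or AI replicate 2 left out.
DDX28, which assembles the mitochondrial ribosome, rose by 0.92, with 17.81 and 14.81 RPKM in AI and 9.61 and 7.28 RPKM in AD cells. DHX30, the other mitochondrial RNA helicase, overlapped, with 22.31 and 16.44 RPKM in AI and 21.22 and 18.07 RPKM in AD cells. DHX58 (LGP2), an interferon-induced sensor of double-stranded RNA, had 1.61 and 1.67 RPKM in AI and 0.53 and 0.7 RPKM in AD cells, and rose by 0.94. DHX57, a less studied DEAH helicase, had 5.0 and 4.91 RPKM in AI and 2.04 and 2.81 RPKM in AD cells, and rose by 0.91. DDX43, a cancer/testis antigen, ranged from 5.57 to 11.58 RPKM in AI and from 5.87 to 13.07 RPKM in AD cells.

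Replicate numbers mattered for some members in untreated cells. DDX39A, an mRNA export factor and close paralog of DDX39B, had 65.59 RPKM in replicate 1 and 31.54 RPKM in replicate 2 of AI cells, and 66.55 RPKM in replicate 1 and 34.95 RPKM in replicate 2 of AD cells. The mitochondrially encoded share moved with the number as well: 19.61% in AI and 18.36% in AD replicate 1, and 33.45% in AI and 32.56% in AD replicate 2. Its part in the helicase values was not tested. With values rescaled without mitochondrially encoded genes 21 helicases were called higher and 1 lower, beside 3161 and 1772 of 14227 genes.

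Between mock-transfected AI and AD cells, which asks the same question in a transfected control, most helicases were lower in AI cells, and DDX5 had the largest fall in log2(RPKM + 0.5), where the added 0.5 shrinks the fold of low genes such as DHX58. DDX5 had 21.64 and 24.37 RPKM in AI mock libraries, against 275.38 and 303.33 RPKM in AD mock libraries, so its mean was 12.6-fold higher in AD cells. DDX17 had 11.28 and 10.95 RPKM in AI mock and 42.39 and 45.51 RPKM in AD mock libraries. DDX28 had 0.77 and 0.97 RPKM in AI mock and 9.05 and 9.17 RPKM in AD mock libraries. DDX41 went the other way, with 214.71 and 217.78 RPKM in AI mock libraries, against 138.74 and 125.15 RPKM in AD mock libraries. None of these 4 genes overlapped between AI and AD.

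By limma 35 of 49 helicases were lower and 4 were higher in AI mock cells, where 43.5% of all genes were called lower and 12.2% higher, 55.7% in all. The median log2 difference was -0.80 for helicases and -0.41 for all genes. DDX5 fell by 3.63 (SE 0.104, adjusted p = 5.36e-08) and DDX17 by 1.94 (SE 0.124, adjusted p = 2.33e-06). DDX41 rose by 0.71 (SE 0.103, adjusted p = 0.000285). Quantile normalization moved the median of all genes to 0.02 and the helicase median to -0.37, with 25 helicases called lower and 5 higher. TMM scaling moved the medians to -0.03 for all genes and -0.31 for helicases, with 23 called lower and 9 higher. Among all 14227 genes quantile normalization called 3522 lower and 3440 higher, and TMM scaling 4028 and 3613. Over the 13 alternatives the DDX5 difference ran from -3.79 to -3.14 and that of DDX41 from 0.53 to 1.2.

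Among the 13 spliceosome and nuclear processing helicases 10 fell and 1 rose in AI mock cells. DDX23 (PRP28), which frees U1 from the splice site, had 34.72 and 34.63 RPKM in AI mock and 100.96 and 99.5 RPKM in AD mock libraries (log2 difference -1.52). DHX35, found in late spliceosomes, had 1.2 and 1.61 RPKM in AI mock and 5.07 and 6.29 RPKM in AD mock libraries (-1.70). DDX42 had 29.48 and 26.4 RPKM in AI mock and 76.26 and 70.6 RPKM in AD mock libraries (-1.38). The smallest calls of the group were sensitive to scaling: DDX46 and DHX16, each at -0.29, and DDX39B (UAP56), at -0.39, turned positive with TMM scaling, at 0.19, 0.19 and 0.10.
Among the 9 export, translation, storage and decay helicases 6 fell and 2 rose. DDX3X had 4.4 and 3.66 RPKM in AI mock and 12.77 and 13.76 RPKM in AD mock libraries (-1.61). DHX9 had 8.72 and 8.09 RPKM in AI mock and 24.54 and 24.03 RPKM in AD mock libraries (-1.48). DHX36, which unwinds G-quadruplexes, had 4.73 and 5.77 RPKM in AI mock and 14.24 and 14.87 RPKM in AD mock libraries (-1.39), and DDX19A fell by 1.41. The pair that rose were DDX6, with 7.46 and 7.88 RPKM in AI mock and 5.03 and 5.01 RPKM in AD mock libraries (0.57, adjusted p = 0.0327), and DHX29, a scanning factor at low level (0.69 and 0.78 RPKM in AI mock, 0.16 and 0.46 RPKM in AD mock libraries). DHX29 reached 0.5 RPKM in AI libraries alone, so it entered the test only where it was high, and its call in either state is no support for a rise.
Of 15 ribosome assembly helicases 9 fell and 1 rose. DHX37, which acts on the small subunit processome, had 3.36 and 3.63 RPKM in AI mock and 10.48 and 10.17 RPKM in AD mock libraries (-1.44). DDX24 had 64.18 and 60.85 RPKM in AI mock and 128.6 and 127.76 RPKM in AD mock libraries (-1.03). The rise was DDX50, a nucleolar paralog of DDX21, with 10.91 and 13.69 RPKM in AI mock and 7.41 and 9.18 RPKM in AD mock libraries (0.54). DDX47 and DDX54 did not pass, with 56.4 and 59.46 RPKM in AI mock against 58.25 and 61.03 RPKM in AD mock libraries for DDX47, and 98.75 and 95.66 RPKM in AI mock against 94.95 and 85.26 RPKM in AD mock libraries for DDX54, of which DDX47 overlapped.
Both mitochondrial RNA helicases fell, DDX28 by 2.81 and DHX30 by 0.48. DHX58 had 0.09 and 0.06 RPKM in AI mock and 2.0 and 2.13 RPKM in AD mock libraries (-2.16), and DDX60, another interferon-induced member, was listed at 0 in both AI mock libraries and had 1.36 and 1.23 RPKM in AD mock libraries. DDX60 in turn reached 0.5 RPKM only in transfected AD libraries, so its call is no support for a fall.

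**Figure D2:**
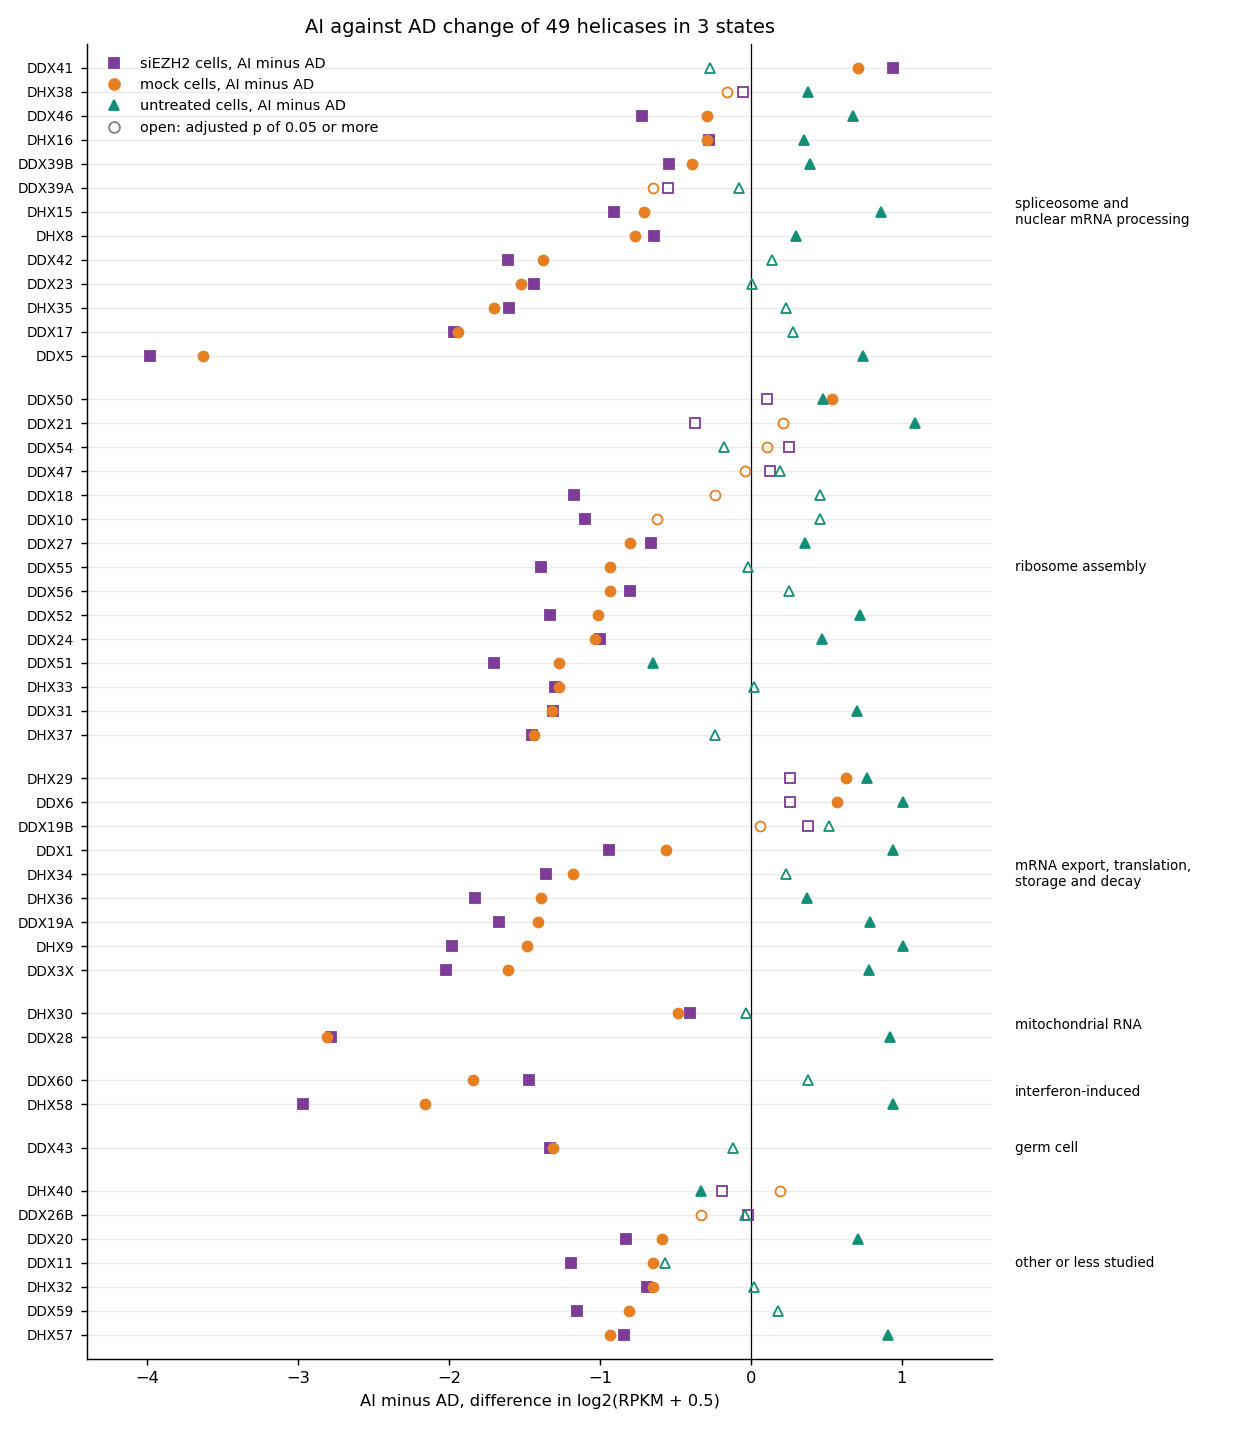
AI minus AD difference in log2(RPKM + 0.5) for the 49 tested helicases, grouped by role, in siEZH2 (squares), mock (circles) and untreated cells (triangles). Filled symbols passed limma at adjusted p under 0.05; in mock cells 35 were lower and 4 higher, and in untreated cells 2 were lower and 24 higher.

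Between AI siEZH2 and AD siEZH2 cells, 37 of 49 helicases were lower and 1 was higher in AI cells, where 47.1% of all genes were called lower and 10.6% higher, 57.7% in all. The median log2 difference was -1.0 for helicases and -0.48 for all genes. The rise was DDX41, with 253.55 and 254.07 RPKM in AI siEZH2 libraries, against 125.95 and 138.55 RPKM in the libraries labelled AD siEZH2 (0.94, SE 0.103, adjusted p = 4.98e-05). DDX5 had 16.88 and 16.15 RPKM in AI siEZH2 and 260.8 and 275.13 RPKM in AD siEZH2 libraries, and fell by 3.98 (SE 0.104, adjusted p = 4.31e-08). DDX3X had 2.91 and 2.41 RPKM in AI siEZH2 and 11.72 and 12.81 RPKM in AD siEZH2 libraries (-2.02), and DHX36 had 3.22 and 3.52 RPKM in AI siEZH2 and 13.33 and 13.25 RPKM in AD siEZH2 libraries (-1.83). The differences of the other most lowered members were -2.97 for DHX58, -2.78 for DDX28, -1.98 for DHX9, -1.97 for DDX17, -1.7 for DDX51, -1.67 for DDX19A and -1.61 for DDX42. By role, 10 of 13 spliceosome, 11 of 15 ribosome assembly and 6 of 9 export, translation, storage and decay helicases fell. With quantile normalization 27 were lower and 6 higher (helicase median -0.53), and with TMM scaling 25 and 8 (-0.44). Among all 14227 genes quantile normalization called 3358 lower and 3225 higher (median 0.03), and TMM scaling 4007 and 3496 (median -0.05). The siEZH2 and mock comparisons use different libraries, and 35 helicases were lower in both. How many of all genes were lower in both was not counted.

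The test of whether the AI to AD difference itself differed between mock and untreated cells called 37 of 49 helicases, 35 towards lower and 2 towards higher (DDX41 and DHX40). Over all genes 41.2% were called towards lower and 8.99% towards higher, 50.2% in all. The median of this difference of differences was -1.16 for helicases and -0.54 for all genes. It was -4.37 for DDX5 (SE 0.147, adjusted p = 2.82e-07) and -2.22 for DDX17 (SE 0.175, adjusted p = 1.47e-05), and 0.99 for DDX41 (SE 0.145, adjusted p = 0.000458). In all, 19 helicases were called higher in untreated AI cells and lower in mock AI cells. The difference between states, whose direction that choice fixes, was called for each of the 19. The share of all genes with this pair of calls was not counted, so the pattern is not shown to be particular to helicases. DDX50 and DDX6 were called higher in AI cells in both states, and DDX51 lower in both. TMM scaling gave 23 lower and 5 higher (helicase median -0.49), and quantile normalization 23 and 3 (-0.52). Among all 14227 genes TMM scaling called 3112 lower and 2944 higher, and quantile normalization 2902 and 2620.

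Genes that work with the helicases, listed for their role, were counted in the same fits, and their counts stand beside 43.5% of all genes called lower and 12.2% higher in mock, and 12.4% lower and 22.2% higher in untreated AI cells. A share near these is no result about a list. Of 24 nucleolar ribosome assembly factors 16 fell and 1 rose in AI mock cells, and 12 rose and 1 fell in untreated AI cells. NOP56, a core protein of box C/D snoRNPs, fell by 1.70 in AI mock and rose by 0.59 in untreated AI cells. The member that rose in mock was NPM1 (1.06), and the member that fell in untreated cells was FBL (-1.21). Of 17 G-patch cofactors of DEAH helicases 13 fell in AI mock cells and none rose, while 3 rose in untreated AI cells and none fell. TFIP11, a cofactor of DHX15, was among both, at -1.03 and 0.55. Of the 2 Microprocessor proteins, which DDX5 and DDX17 assist, DGCR8 fell by 3.32 in AI mock cells (SE 0.16, adjusted p = 5.47e-07) and DROSHA by 0.55. In untreated AI cells 1 of the 2 rose and none fell. Of 11 mRNA export partners of DDX39, 2 fell and 1 rose in AI mock cells, and 2 rose in untreated AI cells. Of 13 RNA helicases of other families, 8 fell and 1 rose in AI mock cells, and 1 fell and 5 rose in untreated AI cells. Of 10 decapping and P-body partners of DDX6, 5 fell and 2 rose in mock, and 1 fell and 3 rose in untreated AI cells. Of 8 exon junction complex genes, 3 fell and 1 rose in mock, and 1 fell and 2 rose in untreated AI cells. Of 6 cap-binding and scanning factors, 3 fell and 1 rose in mock, and 4 rose in untreated AI cells. Of 3 DEAD box proteins without a DDX symbol, EIF4A2 alone was called, lower in AI cells in each of 3 states, with differences of -1.05 in siEZH2, -0.69 in mock and -0.64 in untreated cells.

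The comparison of siEZH2 with mock asks how siRNA against EZH2 goes with helicase RNA. In AI cells 6 of 49 helicases fell and none rose, against 1.39% of all genes called lower and 0.0703% higher, 1.46% in all. DDX18, a ribosome assembly factor, had 2.2 and 2.83 RPKM in siEZH2 and 5.56 and 4.31 RPKM in mock libraries (log2 difference -0.85, adjusted p = 0.0459). DHX9 had 5.38 and 3.87 RPKM in siEZH2 and 8.72 and 8.09 RPKM in mock libraries (-0.81, adjusted p = 0.0362). DDX21 had 21.87 and 19.79 RPKM in siEZH2 and 37.94 and 34.37 RPKM in mock libraries (-0.78, adjusted p = 0.0446). In each, both siEZH2 libraries lay below both mock libraries.
DDX46 had 12.16 and 13.49 RPKM in siEZH2 and 21.06 and 21.66 RPKM in mock libraries (-0.72, adjusted p = 0.0329). DDX55, which acts in large subunit assembly, had 6.71 and 7.45 RPKM in siEZH2 and 11.78 and 10.96 RPKM in mock libraries (-0.65, adjusted p = 0.0362). DHX40 had 14.58 and 12.63 RPKM in siEZH2 and 20.8 and 21.22 RPKM in mock libraries (-0.61, adjusted p = 0.0362). All 6 calls were close to the threshold: none was made with quantile normalization, with TMM scaling, with the 4 AI libraries alone, or with any 1 of the 4 left out. DDX5 had a difference of -0.46 that did not pass (adjusted p = 0.0626).

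**Figure D3:**
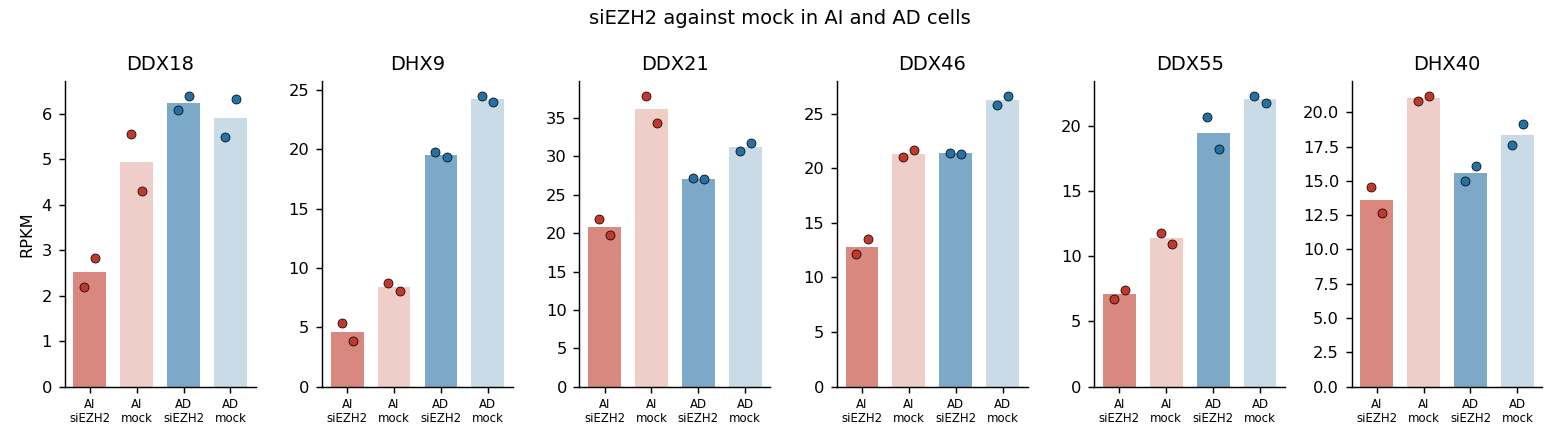
RPKM of the 6 helicases called lower with siEZH2 in AI cells, in AI siEZH2, AI mock, AD siEZH2 and AD mock libraries (points, 2 a group; bars, means; linear axes from 0). In AI cells both siEZH2 points lie below both mock points for each gene.

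In the libraries labelled AD siEZH2, limma called 0 of 49 helicases against AD mock. At an unadjusted p under 0.05 there were 2 helicases and 544 of 14227 genes, so the 2 are near the share over all genes. Over all genes 0.0141% were called. The median log2 difference was -0.10 for helicases and -0.02 for all genes. The 2 with an unadjusted p under 0.05 were DHX58, higher with 3.7 and 3.52 RPKM in siEZH2 and 2.0 and 2.13 RPKM in mock libraries (log2 difference 0.68, unadjusted p = 0.00141, adjusted p = 0.919 by limma), and DDX46, with 21.45 and 21.3 RPKM in siEZH2 and 25.8 and 26.67 RPKM in mock libraries (-0.29, unadjusted p = 0.0165, adjusted p = 1.0 by limma). DHX9, called in AI cells, had 19.75 and 19.36 RPKM in siEZH2 and 24.54 and 24.03 RPKM in mock libraries (-0.31). In none of the 3 genes did the groups overlap, and none passed. The test of a different siEZH2 effect in AI and AD cells also called 0 helicases by limma (0.0% of all genes called). At an unadjusted p under 0.05 it had 9 of 49 helicases and 976 of 14227 genes. The falls in AI cells are therefore not shown to differ from AD cells. The siEZH2 comparisons share their mock libraries with the comparison of AI and AD mock cells.

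RIP with the EZH2 antibody, which asks which RNAs were recovered with EZH2, showed DDX5 as the most abundant helicase transcript by RPKM. It had 153.49 and 120.78 RPKM in AI EZH2 RIP, against 75.46 and 71.07 RPKM in AI IgG. In AD cells it had 109.72 and 110.54 RPKM in EZH2 RIP and 81.73 and 60.66 RPKM in IgG. DDX42 came next, with 57.19 and 62.08 RPKM in AI EZH2 RIP against 16.91 and 19.82 RPKM in AI IgG, and 53.29 and 58.27 RPKM in AD EZH2 RIP against 17.99 and 24.5 RPKM in AD IgG. Both genes were separated from IgG in both cell types. DDX17 overlapped with IgG, with 38.84 and 59.1 RPKM in AI EZH2 RIP and 27.56 and 61.53 RPKM in AI IgG, and 27.19 and 51.6 RPKM in AD EZH2 RIP and 28.64 and 40.19 RPKM in AD IgG.

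In AI cells both EZH2 libraries lay above both IgG libraries for 39 of 50 helicases (78.0%), against 45.2% of all genes tested. In AD cells this held for 38 (76.0%), against 31.4% of all genes, and in both cell types for 35 (70.0%), against 22.8%. No helicase had both EZH2 libraries below both IgG libraries in AI cells (4.08% of all genes), and in AD cells DDX19A alone did (12.4% of all genes), with 1.57 and 1.47 RPKM in EZH2 RIP and 3.2 and 1.76 RPKM in IgG. DDX6 overlapped in both, with 9.12 and 7.18 RPKM in AI EZH2 RIP against 7.22 and 11.66 RPKM in AI IgG, and 6.74 and 6.26 RPKM in AD EZH2 RIP against 5.96 and 8.11 RPKM in AD IgG. IgG libraries were shallow. AI IgG replicate 2 listed 6960 genes above 0 and had 16 helicases at 0, where the AI EZH2 libraries had 18055 and 18275 genes above 0 and no helicase at 0. Mitochondrially encoded genes made up 9.26% to 37.79% of summed RPKM in IgG and 2.4% to 5.85% in EZH2 libraries. The part of depth in the difference was not tested. Without AI IgG replicate 2 the AI count was 47 of 50 against 64.0% of all genes, and without AD IgG replicate 1 the AD count was 40 against 36.5%.

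By limma 0 of 50 helicases and 0.0% of all genes were called for EZH2 RIP against IgG, in AI as in AD cells. With a term for replicate number added, 16 helicases were called higher in AI cells, beside 1291 of 13667 genes, and 4 in AD cells, beside 472. The labels do not say that these numbers mark pairs, so that fit was kept as an alternative. At an unadjusted p under 0.05 there were 25 of 50 helicases in AI cells, beside 2930 of 13667 genes. In AD cells there were 12 of 50 helicases, beside 1383 genes. The median log2 difference was 1.64 for helicases and 0.88 for all genes in AI cells, and 1.36 and 0.43 in AD cells. Rescaled without mitochondrially encoded genes it was 0.97 for helicases and 0.45 for all genes in AI, and 0.80 and 0.08 in AD cells. With quantile normalization it was 0.88 and -0.06 in AI, and 0.71 and -0.04 in AD cells. For DDX5 it was 0.89 in AI (SE 0.433, adjusted p = 0.266) and 0.64 in AD cells (SE 0.433, adjusted p = 0.665). The most abundant members of the other roles differed by 4.31 in AI and 2.37 in AD cells for DHX58, 2.88 and 1.87 for DDX43, 2.05 and 2.33 for DHX30, 1.93 and 0.68 for DHX40, 1.51 and 1.54 for DDX1, and 0.23 and 0.61 for DDX24, none of them called. Without AI IgG replicate 1, the AI control rests on replicate 2 alone, which had 0.997% of the depth of AD EZH2 RIP replicate 1. The median in AI cells was then 1.41 for helicases and 0.98 for all genes. Directly between AI and AD EZH2 RIP the helicase median was 0.06 and limma called none (0.0% of all genes). There 1 of 50 helicases had an unadjusted p under 0.05, beside 233 of 13667 genes. The difference of the EZH2 minus IgG effect between AI and AD cells also gave no call (0.0% of all genes). Its unadjusted p was under 0.05 for 0 helicases and for 436 genes.

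**Figure D4:**
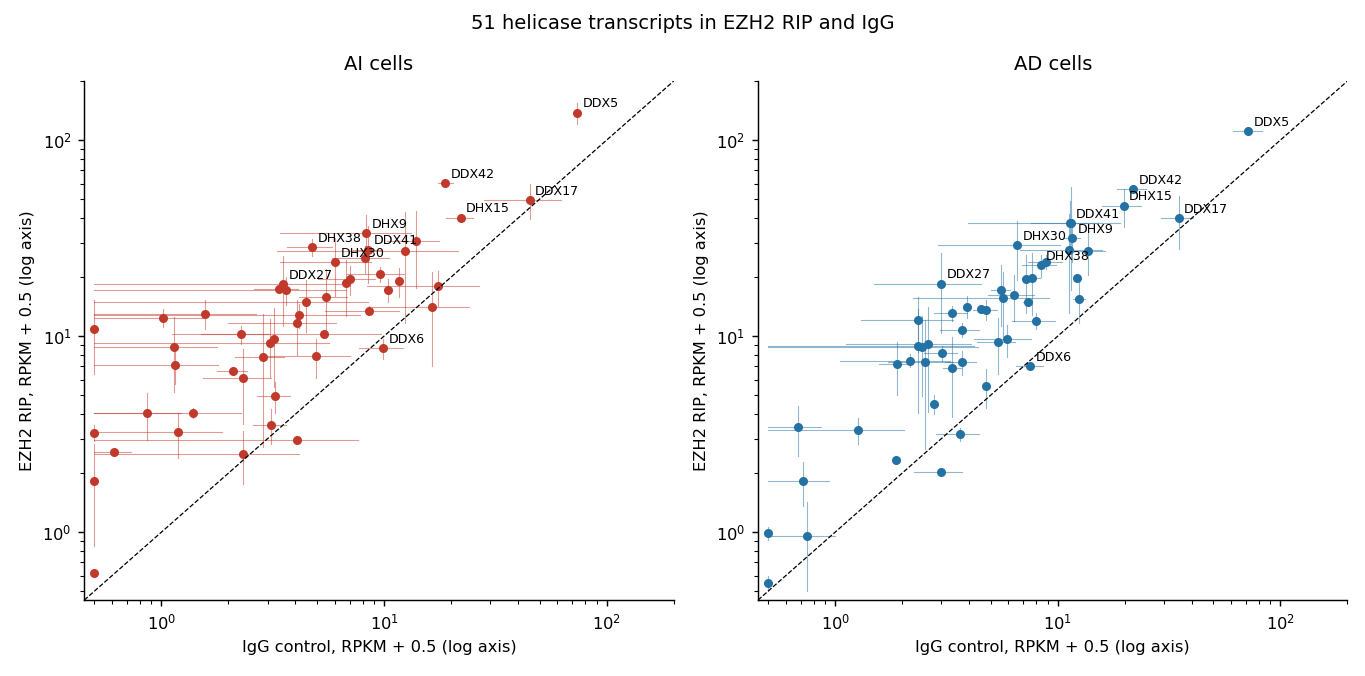
EZH2 RIP against IgG for the 51 helicases in AI (left) and AD cells (right), as RPKM + 0.5 on log axes. Points are at the means of 2 libraries, thin lines join the 2 libraries of each kind, and the dashed line marks equal values; 39 helicases in AI and 38 in AD cells had both EZH2 libraries above both IgG libraries.

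Helicase gene starts were nearly free of H3K27me3 peaks. Within 2 kb of the start, 1 of 47 helicases had a peak in each AI list (2.13%), against 6.43% and 15.7% of 13113 protein-coding genes. In AD cells 1 of 47 (2.13%) had one in list 1, against 8.0% of genes, and 0 of 47 in list 2, against 9.36%. The 1 gene was DDX1 each time, on chromosome 2, with a score of 182.06 and 60.5 in the AI lists and 52.78 in AD list 1. Scores are the authors' own values per peak and were at least 50 in every list. No peak lay within 500 bases of a helicase start in any H3K27me3 list, against 4.71% to 13.9% of genes.
EZH2 peaks lay within 2 kb of 2 of 47 helicase starts (4.26%) in the AI list, against 2.5% of genes, namely DDX17 (score 50.42) and DDX51 (52.41). In AD list 1 there were 3 (6.38%, against 14.8% of genes): DDX41 (96.64), DDX51 (63.1) and DDX54 (60.05). In AD list 2 there were 2 (4.26%, against 4.42%): DDX54 (67.96) and DHX37 (72.12). Only DDX54 was found in both AD lists, and the DDX5 start had no EZH2 or H3K27me3 peak in any list. Lists differed in length, from 11933 to 53911 EZH2 peaks, and no test was made between them.

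**Figure D5:**
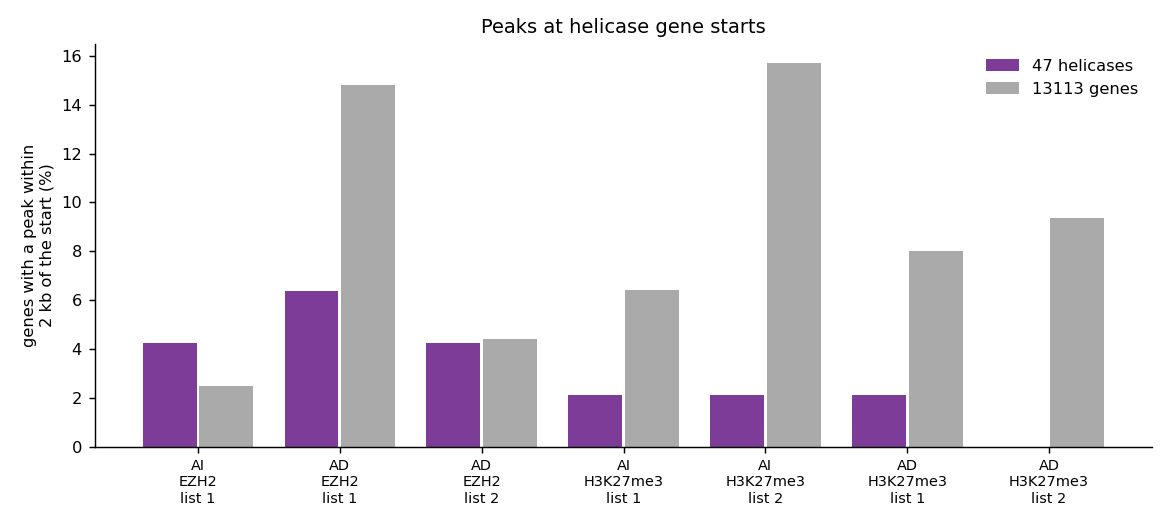
Share of 47 helicases and of 13113 protein-coding genes, helicases included, with a peak within 2 kb of the gene start, in each EZH2 and H3K27me3 list of AI and AD cells (bars from 0). H3K27me3 shares are 2.13% or 0% for helicases and 6.43% to 15.7% for all genes.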

How the data were processed

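The authors deposited RPKM values with 2 decimals for 12 RNA-seq and 8 RIP libraries, and a score per peak in 7 ChIP peak lists. Per the submitters' processing notes, build GRCh38 was used with TopHat2 and edgeR for both RNA tables, Bowtie2 for ChIP, and cutadapt for RNA-seq and ChIP. Sources used here do not give versions, annotation, the counter or its strand setting. The inputs were not analysed separately here.

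Tests used limma 3.58.1 in R 4.3.3 (trend) on log2(RPKM + 0.5), fitting a mean for each group to the 12 RNA-seq or the 8 RIP libraries together, with a shared estimate of the spread, and Benjamini-Hochberg adjustment at 0.05 over all genes with 0.5 RPKM or more in at least 2 libraries (14227 in RNA-seq, 13667 in RIP). The fold scale understates changes of low genes. The fit was tested on simulated data. Promoters and starts were taken from RefSeq (GRCh38.p14).

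Members, roles and partner lists were chosen with earlier results of these data known. Named genes were, per comparison of AI with AD, up to 10 called rises and 10 falls with a mean of at least 1 RPKM, up to 6 each way elsewhere, and DDX5, DDX17 and the most abundant member of each role, though not each of these is printed in each comparison; further members are given as examples, chosen after their values were seen. Alternatives were pseudocounts of 0.1 and 1, no filter, a filter at 1 RPKM, quantile and TMM scaling, rescaling without mitochondrially encoded genes, only the groups compared, a replicate block, and each library left out; for peaks, the upper scores, 500 bases and the whole gene. The counts without the shallowest IgG libraries were added after seeing the data.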

Additional observations from a re-analysis of the deposited data

Results flagged for a closer look

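The AI to AD difference was tested between mock and untreated cells for each helicase. For 19 helicases that were called higher in untreated AI cells and lower in mock AI cells, limma also called the difference between the states (mock minus untreated, on the log2(RPKM + 0.5) scale). These 19 were chosen for opposite calls in the states compared, so the direction restates that choice and the values are a description. The share of all genes with such opposite calls was not counted. Among spliceosome and nuclear processing helicases this difference was -4.37 for DDX5, -1.56 for DHX15, -1.07 for DHX8, -0.97 for DDX46, -0.78 for DDX39B and -0.64 for DHX16. Among export, translation, storage and decay helicases it was -2.49 for DHX9, -2.38 for DDX3X, -2.2 for DDX19A, -1.76 for DHX36 and -1.5 for DDX1. Among ribosome assembly helicases it was -2.01 for DDX31, -1.73 for DDX52, -1.5 for DDX24 and -1.16 for DDX27. It was -3.73 for DDX28, -3.1 for DHX58, -1.84 for DHX57 and -1.3 for DDX20. The mitochondrially encoded share, the transfection and the experiment all differ between the states and cannot be told apart.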

How the results depend on the processing

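Of 26 helicases called between untreated AI and AD cells, 1 was called with only the groups compared, beside 588 genes higher and 518 lower. With 1 library left out fewer of the 26 were called, and the helicase median ran from 0.32 to 0.41. The 6 falls with siEZH2 in AI cells became 0 calls with quantile normalization, TMM scaling and only the groups compared, 2 when rescaled without mitochondrially encoded genes, and 0 with any library left out. For EZH2 RIP against IgG in AI cells, the median with 1 library left out ran from 1.41 to 1.9 for helicases and from 0.58 to 1.16 for all genes. Calls in AI against AD mock cells ran from 31 to 32 with a library left out, and in siEZH2 cells from 35 to 36. Some falls reversed by scaling, none of them then called: in mock cells with quantile normalization DDX11 (0.02) and DDX20 (0.08), and with TMM scaling DDX39B (0.10), DDX46 (0.19) and DHX16 (0.19); in siEZH2 cells with TMM scaling DDX39B (0.02), DHX16 (0.27) and DHX30 (0.15); and for mock minus untreated DHX16 (0.02) and DHX38 (0.13) with TMM scaling, and DHX32 (0.04) and DDX18 (0.01) with quantile normalization. Leaving out the fit on the groups alone, 12 of 24 rises and 0 of 2 falls in untreated AI cells, and 21 of 35 falls and 1 of 4 rises in mock AI cells, were called under every alternative run.

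Replicate numbers were not taken as pairs. Deviations of same-numbered libraries correlated at 0.701 between untreated AI and AD, at 0.009 to 0.062 in transfected cells, and at 0.24 to 0.713 in RIP. A replicate block gave 33 helicase calls in untreated cells, where 4259 of 14227 genes were called higher and 2384 lower. It gave 14 for siEZH2 against mock in AI cells, with 403 genes higher and 1436 lower. For EZH2 RIP against IgG it gave 16 in AI cells (1291 of 13667 genes higher, 47 lower) and 4 in AD cells (472 and 11).

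Helicases with a peak at the start changed with the window. Within 500 bases there were 0 in both AI H3K27me3 lists, against 4.71% and 13.9% of all genes. AD H3K27me3 list 1 had 0, against 6.44%. Both AD EZH2 lists had 0, against 5.8% and 1.03%, and the AI EZH2 list had 1 of 47 (2.13%), against 0.488%. Among the upper scores there were 0 in the AI EZH2 list (1.28% of all genes), AI H3K27me3 list 2 (13.1%) and AD H3K27me3 list 1 (5.8%). Over the whole gene, EZH2 peaks lay in 13 of 47 helicases in the AI list (27.7%, against 23.2% of all genes). In AD list 1 there were 22 (46.8%, against 51.3%) and in AD list 2 there were 12 (25.5%, against 24.9%). These shares are near those over all genes and are no result about helicases. H3K27me3 peaks lay in 2 of 47 (4.26%) in each AI list, against 19.5% and 24.3%. In each AD list they lay in 1 (2.13%), against 17.9% and 18.8%. IgG libraries were the shallowest of the RIP libraries, at 0.997% to 22.9% of the depth of AD EZH2 RIP replicate 1.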
